A study of Mus musculus with 9 samples.

Results

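The genes described here make up the main route by which a cell shows peptides on MHC class I molecules, and were followed in RNA from mouse hippocampus. They are 10 genes chosen by name: the class I heavy chains H2-D1, H2-K1 and H2-T23, the shared light chain B2m, the immunoproteasome subunits Psmb8, Psmb9 and Psmb10, the peptide transporter subunits Tap1 and Tap2, and the loading factor Tapbp. Transcript counts were summed per gene symbol, which gave 38911 genes in all, and the 10 were taken from that table. The samples were hippocampi of healthy adult specific-pathogen-free BALB/c mice, with 3 biological replicates in each of 3 groups. The CCLF group had cecal ligation and puncture, a surgical model of abdominal sepsis, and flavonoids of Cuscuta chinensis (dodder) at 200 mg/kg. The SAE group, named for sepsis-associated encephalopathy, had the ligation and puncture alone, and the CTL group had a sham operation. Total RNA was depleted of ribosomal RNA before sequencing, and the libraries held 4626519 to 4895474 counts.

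Proteins in the cytosol are cut into peptides by the proteasome. In the immunoproteasome, which interferon induces, Psmb8, Psmb9 and Psmb10 take the places of the constitutive catalytic subunits Psmb5, Psmb6 and Psmb7. The Tap1-Tap2 transporter carries the peptides into the endoplasmic reticulum, where Tapbp (tapasin) holds empty class I molecules at the transporter until they are loaded. In the resting brain class I levels are low, above all in neurons, and inflammation raises them in microglia, endothelium and other cells.

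Several features of the table bear on every value below and are given first. Lcn2, an acute-phase gene that rises in the inflamed brain, had 4524 to 9635 counts in the libraries labelled CCLF, 6 to 14 in those labelled SAE and 13246 to 14822 in those labelled CTL. The order of Lcn2 thus goes against the labels of sepsis and sham, so the groups are called by their labels and no direction below is attributed to sepsis. The second feature is the spread of the CCLF columns. Among 970 genes whose SAE and CTL levels differed by less than 0.1 on the log2 scale, at a mean of at least 50 counts, the median ratio of variance to mean over the 3 libraries was 0.0642 in CCLF, 1.51 in SAE and 1.18 in CTL. Random sampling of reads alone gives a ratio of about 1, so the CCLF columns varied less than independent counts would. All 3 CCLF counts lay between the SAE median and the CTL median, ends included, in 98.6% of the 4776 tested genes that have 1 RefSeq row. How the CCLF columns came to hold such values was not tested, and they are described below without being read as an effect of the flavonoids. The third feature is that genes with several RefSeq transcripts often sat at or near 0. Canx (calnexin), a chaperone gene of nearly every cell, had 3 rows and 0 counts in all 9 libraries. Low counts were common among genes with 1 row too. At least 10 counts on average were reached by 18.1% of genes with several rows and 22.6% of those with 1.

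The letters of the gene starts were read because most of these genes moved together. Class I promoters share a module in which RFX factors, CREB family members and NF-Y bind side by side and the transactivator NLRC5 is recruited. Windows from 250 bases before to 50 bases after the start were found for 9 of the 10 genes (RefSeq, assembly GRCm38.p6), and Tap2 had none. The reference strain is C57BL/6J, whereas the mice were BALB/c, so the alleles of these mice may differ from the letters shown. The spacing TGACG, 20 bases, ATTGG was set after the class I promoters had been read, and it stood in the windows of H2-D1, H2-K1 and B2m. These stretches are shown because they are the letters that a heavy chain and the unlinked light chain have in common, with capitals for the fixed letters:
H2-D1 (chr17:35262993-35263022, plus strand): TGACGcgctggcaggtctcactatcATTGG
H2-K1 (chr17:34000359-34000388, minus strand): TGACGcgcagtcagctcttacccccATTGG
B2m (chr2:122147609-122147638, plus strand): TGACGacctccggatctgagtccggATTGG

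Searched on both strands, that spacing was in 31 of 32851 windows (0.0944%). ATTGG is the reverse complement of CCAAT, which alone was in 37.4% of windows. The 31 windows belonged to 27 genes, of which 11 were tested, 4 were lower in SAE (B2m, H2-D1, H2-M3 and Per1) and 2 were higher (Kcnq1ot1 and Nrarp). Over all tested genes 23.9% were lower and 23.7% higher. Because the class I promoters had been read before the spacing was set, its class I genes give no independent link between spacing and level. The nuclear factor kappa B core GGGATTCCC was in the windows of H2-D1 and H2-K1 and in 0.353% of all windows. An interferon-response-like pair of GAAA, 2 bases apart, was in those of B2m and H2-T23 and in 3.44% of all. All patterns were searched on both strands, and in H2-T23 the pair reads TTTC, 2 bases, TTTC in the letters below. Only the exact GAAA pair was searched. Windows without it, such as that of H2-D1, are thus not shown to lack an interferon-response element. A STAT-like TTC, 3 bases, GAA was in that of Psmb8 and in 8.3% of all. The Psmb10 window held none of these 5 patterns. The 250 bases before the start of 4 genes follow, with the patterns other than a lone CCAAT in capitals, since they stand for the heavy chains, the light chain and the immunoproteasome:
H2-D1 (chr17:35262844-35263093, plus strand): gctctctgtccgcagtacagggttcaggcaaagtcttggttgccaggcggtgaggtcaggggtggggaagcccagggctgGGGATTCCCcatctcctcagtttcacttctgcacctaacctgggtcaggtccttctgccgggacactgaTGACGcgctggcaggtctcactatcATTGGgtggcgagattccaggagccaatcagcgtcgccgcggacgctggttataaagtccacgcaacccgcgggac
H2-T23 (chr17:36032702-36032951, minus strand): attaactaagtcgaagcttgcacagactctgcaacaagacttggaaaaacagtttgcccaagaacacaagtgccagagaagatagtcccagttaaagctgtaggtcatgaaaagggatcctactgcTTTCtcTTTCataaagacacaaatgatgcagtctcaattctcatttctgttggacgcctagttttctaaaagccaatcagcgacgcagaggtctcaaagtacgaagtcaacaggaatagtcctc
B2m (chr2:122147437-122147686, plus strand): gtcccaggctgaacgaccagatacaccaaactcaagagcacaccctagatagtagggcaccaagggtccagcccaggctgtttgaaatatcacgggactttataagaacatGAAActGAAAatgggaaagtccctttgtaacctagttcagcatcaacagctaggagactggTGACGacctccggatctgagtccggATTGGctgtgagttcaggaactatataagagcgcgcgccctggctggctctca
Psmb8 (chr17:34197945-34198194, plus strand): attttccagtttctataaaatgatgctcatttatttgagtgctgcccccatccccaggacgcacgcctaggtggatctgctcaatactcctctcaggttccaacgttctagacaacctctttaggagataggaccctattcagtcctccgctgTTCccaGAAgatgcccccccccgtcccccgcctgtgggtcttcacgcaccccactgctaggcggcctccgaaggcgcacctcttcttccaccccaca

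The Psmb9 and Tap1 windows share 275 of their 300 bases, on opposite strands, because the pair is transcribed from a common start region. A match of letters describes these windows and shows no binding.

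All 6 genes that could be tested were lower in the libraries labelled SAE than in those labelled CTL. Psmb8 had the largest fold, at 7.54% of its CTL level, and Psmb10 the smallest, at 43.3%. The 6 were H2-D1, H2-T23, B2m, Psmb8, Psmb10 and Tap2, and in each of them every SAE library was below every CTL library. In the quasi-likelihood fit of edgeR, with p adjusted over 8213 genes by Benjamini and Hochberg, 6 were lower and 0 higher at an adjusted p under 0.05. Over all tested genes 23.9% were lower, 23.7% were higher and 27.1% had every SAE library below every CTL library. The median log2 fold (SAE minus CTL throughout) was -2.48 over the 6 and 0.005 over all tested genes. The genes had been chosen with earlier results of these data known, so these comparisons with all genes are a description. In all, 733 tested genes (8.92%) were called lower with a log2 fold below -1, and all 6 were among them. The 4 others had too few counts for the test.

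**Figure D1:**
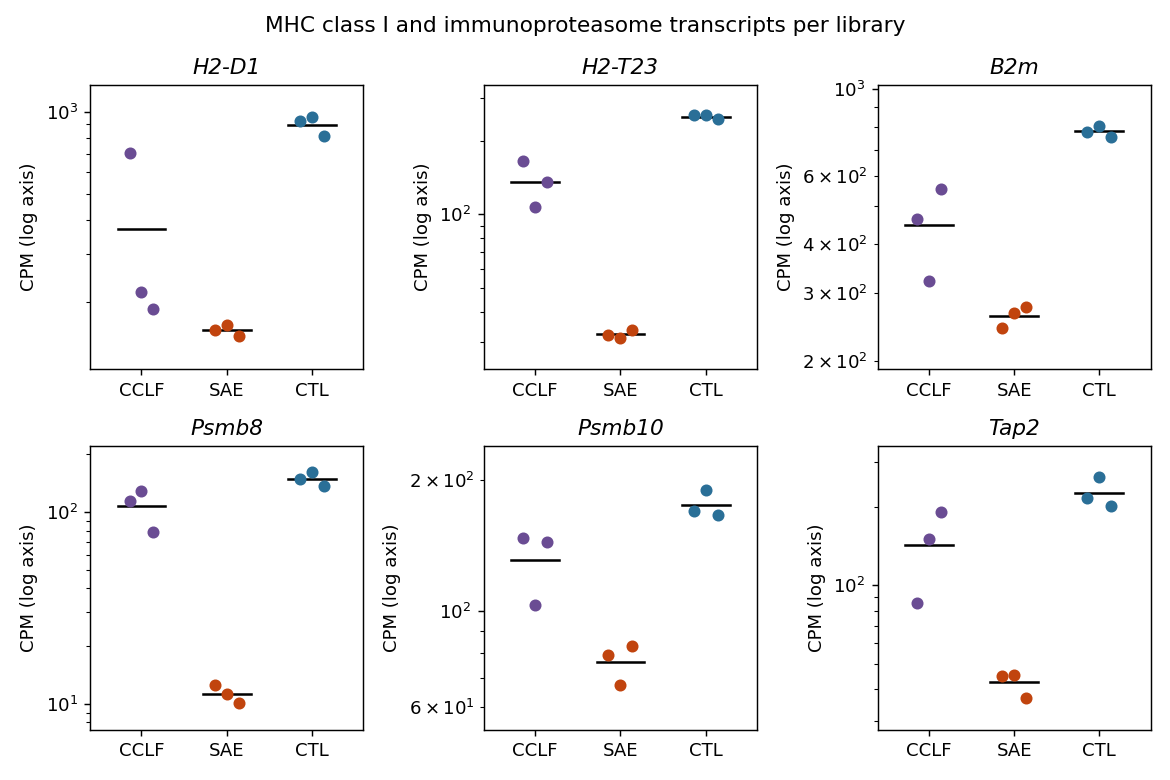
CPM (log axis) of the 6 tested genes in each library labelled CCLF, SAE and CTL, with points for libraries and bars for group means (n = 3). The 3 SAE points lie below the 3 CTL points in every panel, and the CCLF points lie between the SAE and CTL means.

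H2-D1 encodes a classical class I heavy chain, the chain that holds the peptide and is read by CD8 T cells. Its counts were 3342, 1028 and 891 in the libraries labelled CCLF, 743, 767 and 726 in those labelled SAE and 4225, 4565 and 3916 in those labelled CTL. The SAE libraries lay close together and far below the CTL libraries, while 1 CCLF library stood near CTL and the other two near SAE. In CPM, counts scaled to the size of the library with trimmed-mean factors, it averaged 157 ± 7.2 in SAE and 897 ± 72.2 in CTL (SD, n = 3 each), a log2 fold of -2.52 ± 0.058 (approximate SE, adjusted p = 2.57e-18, edgeR). In bulk tissue, fewer cells that make a transcript and less transcript per cell cannot be told apart.

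H2-T23 encodes Qa-1, a nonclassical heavy chain that presents class I leader peptides to the CD94/NKG2A receptor of NK and CD8 T cells. Its counts were 777, 507 and 640 in CCLF, 152, 145 and 163 in SAE and 1164, 1216 and 1174 in CTL. The groups did not overlap, and in CPM neither the SAE nor the CTL libraries differed among themselves by more than 1.08-fold. H2-T23 averaged 32.4 ± 1.31 CPM in SAE and 251 ± 5.51 CPM in CTL (SD, n = 3 each), a log2 fold of -2.96 ± 0.072 (adjusted p = 4.85e-20, edgeR). All of its counts were in 1 of its 3 RefSeq rows.

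H2-K1, the other classical heavy chain of the reference strain that is listed, had 13 RefSeq rows and was listed at 0 in all 9 libraries. Since genes used by every cell were also listed at 0, this is no measure of its expression. Reads from near-identical class I genes can be assigned to one another, and BALB/c mice carry other class I alleles than the reference. The counts of 32 class I heavy-chain symbols were therefore also summed, 17 of which held counts. The sum was 5898, 2259 and 3348 in CCLF, 1199, 1230 and 1188 in SAE and 7621, 8469 and 7029 in CTL. The summed family was lower in SAE by about as much as H2-D1 (log2 fold -2.69 ± 0.065, adjusted p = 2.84e-12, edgeR). H2-D1 supplied 52.8% of the family's counts over all libraries, H2-Q4 25.5% and H2-T23 15.5%.

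Of 23 further class I and class I-like heavy chains, 6 were tested, 4 were lower and 1 was higher, with a median log2 fold of -1.15. H2-Q5, a heavy-chain symbol outside this list, was also lower (log2 fold -3.38 ± 0.41, adjusted p = 3.31e-07, edgeR). H2-Q4, a nonclassical heavy chain, had 1523, 497 and 1518 counts in CCLF, 92, 102 and 96 in SAE and 1935, 2340 and 1644 in CTL. Its log2 fold of -4.37 ± 0.18 (adjusted p = 7.22e-06, edgeR) was larger than that of any of the 6. H2-M3, which presents formylated bacterial peptides, had a log2 fold of -1.60 ± 0.19 and H2-T10 one of -1.50 ± 0.24. H2-T24 went the other way, with 102 to 114 counts in SAE and 52 to 62 in CTL (log2 fold 0.89 ± 0.16, adjusted p = 5.81e-05, edgeR). The class I heavy chains therefore did not all move in one direction.

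B2m encodes beta-2-microglobulin, the light chain that every classical class I molecule needs to reach the cell surface. Its counts were 2185, 1517 and 2613 in CCLF, 1147, 1239 and 1330 in SAE and 3561, 3863 and 3621 in CTL. B2m averaged 261 ± 16.4 CPM in SAE and 780 ± 26.2 CPM in CTL (SD, n = 3 each), a log2 fold of -1.59 ± 0.049 (adjusted p = 2.76e-18, edgeR). The groups did not overlap, and the fold was smaller than that of either heavy chain.

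Within a library the heavy chains therefore differed from the light chain. The ratio of H2-D1 to B2m counts was 1.53, 0.678 and 0.341 in CCLF, 0.648, 0.619 and 0.546 in SAE and 1.19, 1.18 and 1.08 in CTL. The ratio of H2-T23 to B2m counts was 0.356, 0.334 and 0.245 in CCLF, 0.133, 0.117 and 0.123 in SAE and 0.327, 0.315 and 0.324 in CTL. Neither ratio overlapped between SAE and CTL. The exact two-sided permutation p was 0.1 for each, the smallest that 3 against 3 libraries allow. In CCLF the H2-D1 ratio ran past both groups, with 1 library above every CTL value and 1 below every SAE value.

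Psmb8 encodes LMP7, the immunoproteasome subunit with chymotrypsin-like activity. Its counts were 539, 607 and 372 in CCLF, 59, 52 and 49 in SAE and 680, 769 and 655 in CTL. Psmb8 averaged 11.3 ± 1.19 CPM in SAE and 149 ± 12.1 CPM in CTL (SD, n = 3 each), a log2 fold of -3.73 ± 0.11 (adjusted p = 7.98e-19, edgeR). Only 87 of the 8213 tested genes had a lower log2 fold.

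Psmb10 encodes MECL-1, the immunoproteasome counterpart of Psmb7. Its counts were 692, 484 and 681 in CCLF, 373, 314 and 401 in SAE and 778, 910 and 796 in CTL. The groups did not overlap, but SAE kept more of the transcript than for any other of the 6 genes. Psmb10 averaged 76.5 ± 8.12 CPM in SAE and 175 ± 12.9 CPM in CTL (SD, n = 3 each), a log2 fold of -1.21 ± 0.079 (adjusted p = 6.97e-12, edgeR). Psmb9 (LMP2) had 3, 4 and 2 counts in CCLF, 2, 1 and 0 in SAE and 8, 4 and 3 in CTL, all in a predicted transcript row, and its curated row was at 0.

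The immunosubunits were also set against the constitutive subunits they replace, whose own changes were small. Psmb5 had a log2 fold of -0.22 ± 0.052 and Psmb7 one of -0.30 ± 0.062, both called by edgeR (adjusted p = 0.00109 and 0.000331). Psmb8 made up 32.8%, 34% and 26.3% of the Psmb8 plus Psmb5 counts in CCLF, 5.42%, 4.82% and 4.42% in SAE and 37.4%, 38.8% and 34.7% in CTL. The mean share differed by -32 percentage points, SAE minus CTL (4.89 ± 0.501% against 36.9 ± 2.09% in CTL, SD, n = 3 each, exact two-sided permutation p = 0.1, the smallest possible). Psmb10 made up 50.9%, 41.8% and 47% of the Psmb10 plus Psmb7 counts in CCLF, 36.8%, 33.1% and 36.1% in SAE and 49.3%, 53.1% and 49.7% in CTL. That mean share differed by -15.4 points (35.3 ± 2.01% against 50.7 ± 2.1% in CTL, SD, n = 3 each, exact two-sided permutation p = 0.1). Both shares separated SAE from CTL without overlap. They are shares of transcript counts, not of protein, and Psmb7 has 2 RefSeq rows, so its counts may be incomplete. Psmb6 had only 5 to 15 counts, too few to set against Psmb9.

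The immunosubunits also differed from each other in the size of their change, and their ratio did not overlap between SAE and CTL. Psmb8 counts per Psmb10 count were 0.779, 1.25 and 0.546 in CCLF, 0.158, 0.166 and 0.122 in SAE and 0.874, 0.845 and 0.823 in CTL (exact two-sided permutation p = 0.1 for SAE against CTL).

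**Figure D2:**
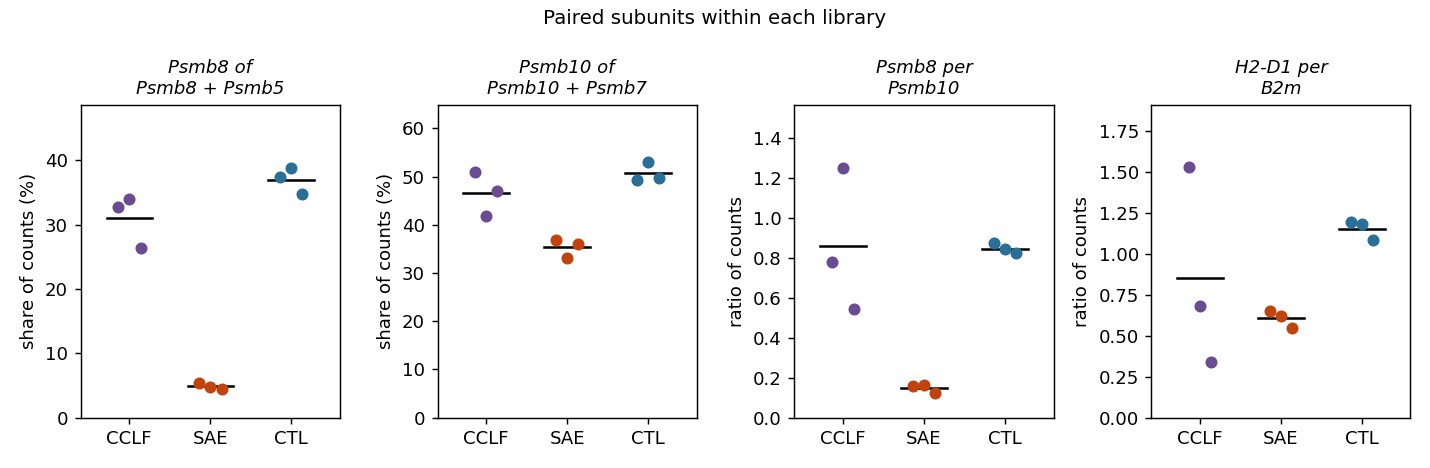
Share of the immunosubunit in each subunit pair (percent of counts), and the ratios of Psmb8 to Psmb10 and of H2-D1 to B2m counts, in each library labelled CCLF, SAE and CTL, with bars for group means (n = 3). SAE and CTL are separated in each panel, most for Psmb8, at 4.42% to 5.42% in SAE and 34.7% to 38.8% in CTL, and CCLF is spread widely in the ratios.

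Tap2 encodes a subunit of the peptide transporter. Its counts were 405, 713 and 907 in CCLF, 211, 211 and 178 in SAE and 998, 1249 and 970 in CTL. The SAE libraries were again tightly grouped below all the CTL libraries. Tap2 averaged 42.3 ± 4.74 CPM in SAE and 227 ± 30.4 CPM in CTL (SD, n = 3 each), a log2 fold of -2.44 ± 0.1 (adjusted p = 5.87e-11, edgeR). Its partner Tap1 had 1 count, in a CTL library, and Tapbp was listed at 0 in every library. Tap1, Tapbp and Psmb9 have 2 RefSeq rows each, while 5 of the 6 tested genes have 1. Of all genes, 22.6% of those with 1 row and 18.1% of those with several averaged at least 10 counts. Nothing is concluded here about Tap1, Tapbp, Psmb9 or H2-K1.

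Levels of different genes were compared as mean CPM per kilobase of transcript, and their order differed between SAE and CTL. In SAE it was 304 for B2m, 74.9 for H2-D1, 58.3 for Psmb10, 22 for H2-T23, 12.3 for Tap2 and 6.92 for Psmb8. In CTL it was 906 for B2m, 427 for H2-D1, 170 for H2-T23, 134 for Psmb10, 91.2 for Psmb8 and 65.9 for Tap2. The light chain was the most abundant in both, and Psmb8 was above Tap2 in CTL and below it in SAE. Of the 5 neighbouring pairs in each order, 0 overlapped over the 3 libraries. In CCLF the values were 519 for B2m, 177 for H2-D1, 100 for Psmb10, 92.3 for H2-T23, 65.9 for Psmb8 and 41.6 for Tap2, and 4 of the 5 neighbouring pairs overlapped, all but B2m and H2-D1.

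The other genes of the presentation route were described by list. Of 9 genes of peptide loading and trimming, 7 were tested, 2 were lower and 3 higher, with a median log2 fold of -0.03. Erap1, the aminopeptidase that trims peptides in the endoplasmic reticulum, was lower (-1.09 ± 0.17, adjusted p = 1.37e-05, edgeR), and Calr, the chaperone calreticulin, was higher (0.38 ± 0.042, adjusted p = 7.17e-08, edgeR). Ide, a cytosolic peptidase, was higher (0.20 ± 0.057, adjusted p = 0.00534, edgeR). Lnpep, an endosomal aminopeptidase of cross-presentation, was lower (-0.16 ± 0.059, adjusted p = 0.028, edgeR). The third higher gene was the peptidase gene Thop1 (0.15 ± 0.06). Pdia3, which sits in the loading complex with tapasin, had 3061 to 3242 counts in SAE and 3128 to 3324 in CTL (log2 fold -0.03 ± 0.042, adjusted p = 0.528, edgeR).

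Among 4 tested proteasome activator genes, 2 were lower: Psme1 (PA28 alpha, -0.88 ± 0.064, adjusted p = 3.98e-11, edgeR) and Psme2b (-1.15 ± 0.14, adjusted p = 3.16e-07, edgeR), a close copy of Psme2, with which reads can be shared. Psme2 itself had 3 to 8 counts. Of 2 tested assembly factors, 1 was lower, Pomp, with a log2 fold of -0.16 ± 0.06 (adjusted p = 0.0337, edgeR), with overlapping groups. The structural core was also lower, by smaller folds than the 6 genes. Lower were 3 of 3 tested beta subunits (Psmb1, Psmb3 and Psmb4, -0.50 to -0.21) and 3 of 5 tested alpha subunits (Psma1, Psma2 and Psma5, -0.42 to -0.16). For Psma5 the groups overlapped (adjusted p = 0.0389, edgeR). In both lists 0 were higher, and 23.9% of all tested genes were lower.

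The regulators of the route could mostly not be tested. Of 16 class I regulators, 5 were tested, 2 were lower and 0 higher. Stat2, a signal transducer of type I interferon, had 522 to 585 counts in SAE and 1492 to 2108 in CTL (log2 fold -1.71 ± 0.15, adjusted p = 0.000272, edgeR). Rfxap, a part of the RFX complex, was lower, with a log2 fold of -0.32 ± 0.065 (adjusted p = 0.000258, edgeR). Irf1, an interferon-induced activator of class I genes, had 9 to 15 counts in SAE and 14 to 18 in CTL (log2 fold -0.44 ± 0.36, adjusted p = 0.329, edgeR). Nlrc5, the transactivator of class I genes, had at most 3 counts in any library, over 6 rows. Of 4 tested interferon receptor and kinase genes, Ifngr1 was lower (-0.64 ± 0.095, adjusted p = 6.41e-06, edgeR) and Ifngr2 higher (0.38 ± 0.054, adjusted p = 2.35e-06, edgeR). The ligand genes Ifng and Ifnb1 had at most 1 count.

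MHC class II genes, which serve the other antigen presentation route, did not share the class I direction as a group. Of 5 tested, H2-Aa (0.92 ± 0.28) and H2-Eb1 (0.98 ± 0.27) were higher and H2-DMb1 (-0.62 ± 0.25) lower in SAE. For H2-DMb1 the groups overlapped (adjusted p = 0.0463, edgeR).

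**Figure D3:**
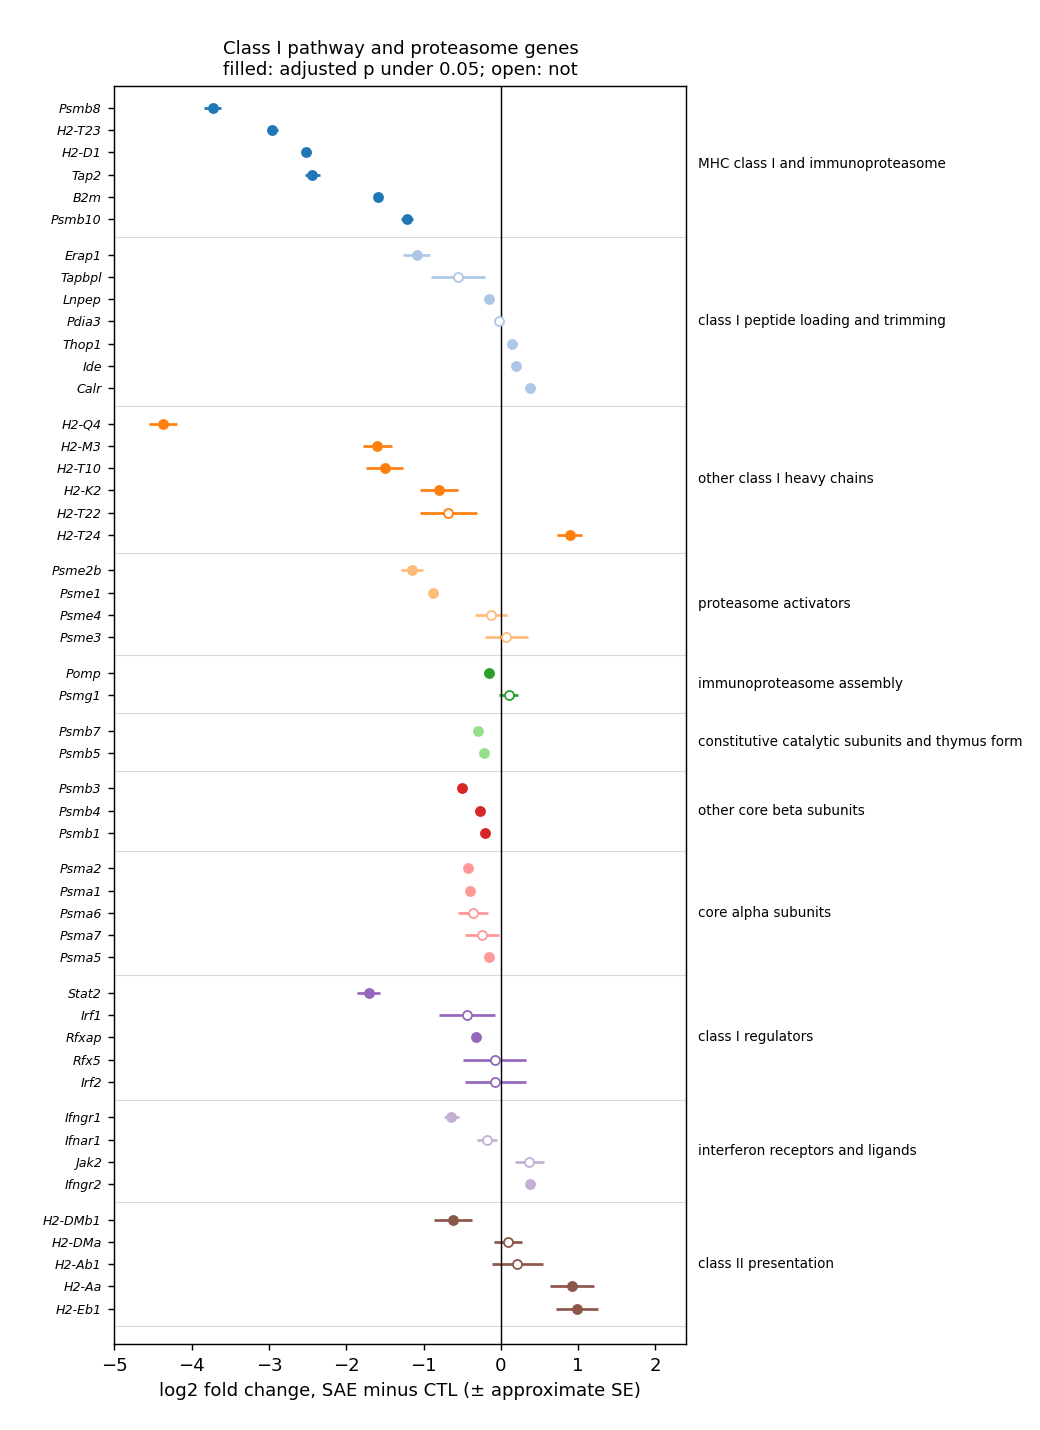
Log2 fold change (SAE minus CTL, points, with bars of ± 1 approximate SE) of the tested genes of each group named at the right, filled where the adjusted p was under 0.05. The 6 genes of the first group lie between -3.73 and -1.21, while the loading genes have a median of -0.03 and the other core beta subunits lie between -0.50 and -0.21.

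Of the 10 genes, 8 lie within the MHC on chromosome 17, and B2m and Psmb10 do not. The neighbours in the interval that runs from Tapbp to H2-T23 were counted to see how the region behaved. Of 48 tested genes there outside the class I family, 11 (22.9%) were lower and 10 higher, with a median log2 fold of 0.09. That share lies near the 23.9% of all tested genes. Called with a log2 fold below -1 were 5 of the 48 (C2, Cchcr1, Clic1, Ier3 and Ppp1r18), where 8.92% of all tested genes were, and Prrt1 was higher with a log2 fold of 1.49 ± 0.12.

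Markers of the cell types that the tissue could hold were summed in each library. A sum follows its most abundant genes. Slc1a3 held most of the astrocyte sum, at a mean of 2573 CPM in SAE and 2944 in CTL. Slc17a7 held most of the neuron sum, at 6360 CPM in SAE and 5656 in CTL. The summed neutrophil markers, 7 genes, were 15.9 to 43 CPM in CCLF, 4.34 to 4.93 in SAE and 47.8 to 63.3 in CTL, and the 2 that were tested, S100a8 and Ngp, were lower in SAE, while S100a9 and Ly6g were at 0. The T and NK cell markers summed to 1.06 to 1.91 CPM in CCLF, 0.207 to 0.848 in SAE and 2.92 to 3.54 in CTL, with Cd3e, Cd4, Cd8a, Klrb1c and Ptprc at 0, and 0 of these genes had enough counts to be tested. Astrocyte markers summed to 3327 to 3690 CPM in CCLF, 3415 to 3485 in SAE and 3259 to 3532 in CTL, and 4 of 5 tested were lower in SAE: Gfap (-2.80 ± 0.21), Aqp4 (-1.61 ± 0.41), Slc1a2 (-0.71 ± 0.14) and Slc1a3 (-0.21 ± 0.033), while Gja1 was higher (1.11 ± 0.048). Microglia markers had higher sums in SAE, at 536 to 641 CPM in CCLF, 687 to 755 in SAE and 429 to 557 in CTL, and all 5 of 8 that were tested were higher in SAE, with P2ry12 at 0. Endothelial markers summed to 309 to 444 CPM in CCLF, 434 to 460 in SAE and 300 to 342 in CTL, with Pecam1 at 0. They did not move together: of 4 tested, Itm2a (2.22 ± 0.082), Kdr (1.03 ± 0.24) and Flt1 (0.60 ± 0.071) were higher in SAE. Cldn5 was lower (-1.06 ± 0.079). Oligodendrocyte markers summed to 414 to 509 CPM in CCLF, 531 to 617 in SAE and 365 to 436 in CTL, and 3 of 4 tested were higher: Mog (1.34 ± 0.094), Cnp (1.10 ± 0.087) and Opalin (1.04 ± 0.09). Hippocampal neuron markers summed to 6936 to 7455 CPM in CCLF, 7653 to 7784 in SAE and 6703 to 6956 in CTL, and 3 of 6 tested were higher and 1 lower. Markers of border and infiltrating myeloid cells summed to 51.7 to 64 CPM in CCLF, 50.7 to 58.1 in SAE and 54.3 to 58.3 in CTL, with Mrc1 higher and Lyve1 and Lyz2 lower in SAE. Of the remaining lists, 2 of 4 tested red blood cell markers were lower, 1 of 4 tested choroid plexus markers was higher and 0 B cell markers could be tested. The part of any of these cells in the class I difference was not tested.

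The CCLF libraries were uneven from gene to gene. On the log2 scale, with the SAE mean at 0% and the CTL mean at 100%, H2-D1 stood at 86.5%, 18.7% and 10.5% in CCLF replicates 1, 2 and 3, while Tap2 stood at 42.3%, 76.1% and 90.4%. B2m stood at 52.4%, 19% and 68.8%, and Psmb8 at 89.8%, 94.5% and 75.3%. No replicate was the highest throughout: replicate 1 was nearest CTL for 3 genes, replicate 2 for 1 and replicate 3 for 2. The highest CCLF library exceeded the lowest by 1.43-fold (Psmb10) to 3.75-fold (H2-D1), against 1.08-fold to 1.23-fold in SAE and 1.04-fold to 1.29-fold in CTL. All 18 CCLF values of the 6 genes lay between the SAE and CTL means, as all 3 did in 82.6% of the 1356 genes called with a log2 fold beyond 1 in either direction. Over those 1356 genes the replicate nearest CTL was replicate 1 in 33.3%, replicate 2 in 33.7% and replicate 3 in 33%, close to an even split.

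**Figure D4:**
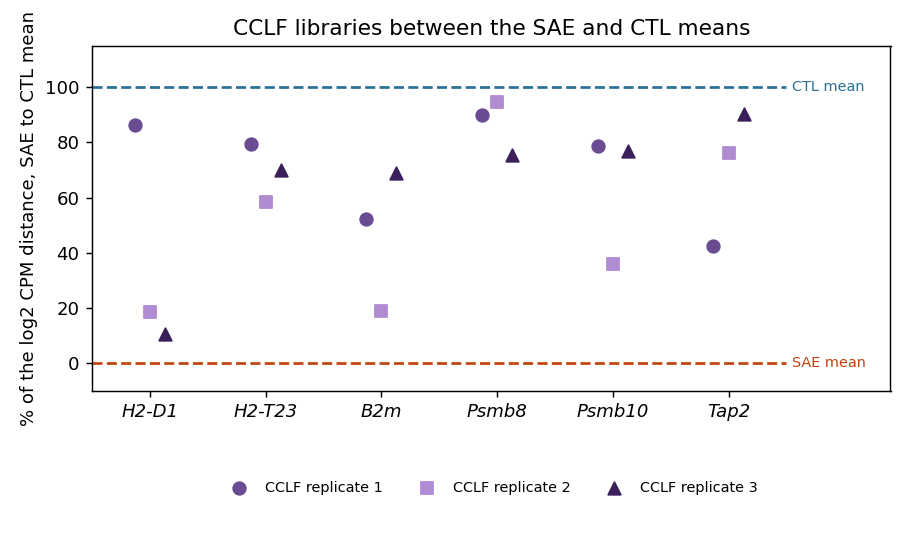
Position of each CCLF library (symbols for replicates 1 to 3) between the SAE mean (0%) and the CTL mean (100%) on the log2 CPM scale, for the 6 tested genes. H2-D1 runs from 10.5% to 86.5% and Psmb8 from 75.3% to 94.5%, and no replicate is the highest for all genes.

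The tested genes whose pattern over the 9 libraries was most like the mean of the 6 were found by Pearson's r of log2 CPM, as a description. The points share their libraries, and the SAE to CTL difference and the CCLF columns shape every value. The closest of the ranked genes was Icam1, an adhesion receptor for leukocytes (r = 0.995). Its counts were 740, 357 and 346 in CCLF, 45, 48 and 34 in SAE and 1339, 1498 and 1135 in CTL. It was followed by Gm51535 and Ncl (both 0.991), Rab31 and Tmem252 (both 0.990), Tnfsf11 (0.989), Clic1 (0.987) and H2-Q5 (0.984). Among the 6 themselves, r with their mean was 0.998 for H2-T23 and 0.89 for H2-D1.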

How the data were processed

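RNA sequencing of 9 hippocampal libraries was analysed from the whole-number counts per RefSeq transcript that the authors deposited. Per the submitters' processing notes, fastp and Salmon were used; their versions, the settings and the build are not stated there. All 120312 rows were matched to symbols with the RefSeq table (GRCm38.p6, names only) and summed to 38911 genes, of which 22846 had counts. The groups follow the labels. The SAE and CTL libraries (6) were fitted with edgeR 4.0.16 (R 4.3.3, TMM, filterByExpr by group, robust quasi-likelihood F test, Benjamini-Hochberg over 8213 genes, called under 0.05). The approximate SE is the size of the log2 fold over the square root of F. CPM use factors from all 9 libraries, and log2 CPM a prior count of 2. Transcript lengths came from GENCODE M21. The labels name biological replicates, while the sample titles carry the abbreviation dup. The p-values measure the spread between these libraries. Among the 970 genes of small SAE to CTL difference, that spread was not far above read sampling (median variance to mean 1.51 in SAE, 1.18 in CTL). Whether each library came from a separate animal was not tested. CCLF was described with no test.

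The 10 genes and the other gene lists were chosen with earlier results of these data known. Named are all 10, up to 4 called genes of smallest p from each list, catalytic counterparts and the 8 most alike unlisted genes. Genes outside that rule (Lcn2, MHC neighbours, promoter matches, cell markers, Thop1 and list genes given as not called) were named after values were seen. The fit was checked on simulated counts. Alternatives were DESeq2 1.42.0 size factors and Wald test, limma-voom (limma 3.58.1), no filter, 1 CPM in 3 libraries, all 9 libraries, a replicate block, each library left out, and, chosen after seeing the data, genes with 1 RefSeq row. Scripts used Python 3.11.15, pandas 2.3.3, numpy 2.4.6 and matplotlib 3.10.9.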

Additional observations from a re-analysis of the deposited data

How the results depend on the processing

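The log2 fold of each of the 6 tested genes kept its direction and stayed called under the alternatives that could fit it. Over these, H2-D1 ranged from -2.59 to -2.48, H2-T23 from -2.99 to -2.93, B2m from -1.62 to -1.53, Psmb8 from -3.8 to -3.65, Psmb10 from -1.26 to -1.11, Tap2 from -2.52 to -2.33 and the summed heavy-chain family from -2.77 to -2.64. The largest adjusted p came from the edgeR fit of all 9 libraries, at 0.00872 for H2-D1 and between 4.28e-07 and 0.00124 for the others and the family. Leaving out each library in turn gave 1743 to 1940 genes higher and 1776 to 1992 lower in SAE, with 0 of the 10 genes higher and 6 lower, and mean share differences of -33.2 to -31.1 points for Psmb8 and -16.1 to -14.2 for Psmb10. Fitting only the genes with 1 RefSeq row called 1281 higher and 1284 lower, against 1946 and 1966, since 4776 rather than 8213 genes were tested. H2-T23, with 3 rows, left that fit. With no filter, Psmb9 had a log2 fold of -2.21 ± 0.94 (edgeR adjusted p = 0.0917) and Tap1 -1.88 ± 2 (adjusted p = 0.553). The replicate block gave 1934 higher and 1958 lower genes and the 6 tested genes lower, and same-numbered SAE and CTL libraries did not deviate together (correlations 0.027, -0.013 and 0.023). The filter on low counts kept H2-K1, Psmb9, Tap1 and Tapbp out of the main test, and H2-K1 and Tapbp were listed at 0 in every library.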
